A study of Mus musculus with 4 samples.

Results

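Pigment-rich spots of the mouse eye without detected transcripts of 4 genes of the retinal pigment epithelium (RPE) are described here. A spot, which is a small region that can hold several cells, was chosen by its measured UMI counts. It was a member when it had at least 200 UMIs (unique molecular identifiers, 1 per captured RNA molecule), at least 3 UMIs summed over Mlana, Pmel, Tyrp1, Dct and Slc45a2, and 0 UMIs of the RPE genes Rpe65, Rgr, Lrat and Best1. The rule found 289 members among 4603 spots over tissue, of which 3778 had at least 200 UMIs. There were 84, 99, 80 and 26 members in frames 1 to 4.

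The study placed cryosections of fresh-frozen posterior eyes of C57BL/6J mice on Visium slides, whose barcoded spots record where RNA was captured. Its design uses AAV2/2 vectors that express the Wnt inhibitor Wif1 from a CMV promoter (CMV-Wif1-HA-IRES-GFP or CMV-Wif1-HA), a control vector CMV-IRES-GFP, and retinas taken from controls and at 2 and 4 weeks after injection. All 4 frames, 1 library each and numbered as biological replicates, carry the treatment label Naive+AAV2/2, the tissue label Retina and the molecule label nuclear RNA, and no age is given. Injected and control tissue therefore cannot be told apart, every comparison is between sets of spots of the same frames, and a p-value measures how frames differ, a spread that can be technical. The CMV promoter is not restricted to a cell type, and no measured feature was named after the vector or GFP.

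Melanin is made in melanosomes, organelles in which the fibrils built by Pmel are coated by pigment from the enzymes Tyr, Tyrp1 and Dct. In the eye, pigment is made by neural crest melanocytes of the choroid, ciliary body and iris, and also by epithelia that descend from the optic cup, namely the RPE and the pigmented layers of the ciliary body and iris. Melanocytes depend on the transcription factors Sox10 and Mitf, and the RPE is known for the visual cycle, of which the rule excluded Rpe65, Rgr and Lrat.

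Mitf binds the M-box, whose core is TCATGTG, in front of melanin genes. In RefSeq promoters of GRCm38.p6, from 250 bases before to 50 bases after a start, this core was found on either strand in 7 of 31 pigment and melanosome genes with an entry, of 36 looked for, and in 3.77% of all 32851 promoters. The 7 genes were Dct, Hps1, Slc24a5, Slc7a11, Trpm1, Tyr and Tyrp1. The variant TCACGTG was found in 7 of the 31 and in 3.77% of all, and the shorter CATGTG, which every TCATGTG contains, in 9 of the 31 and in 14.2% of all. The sites of 2 rule genes, Tyrp1 and Dct, and of 2 further melanosome genes, Tyr and Trpm1, are printed 5′ to 3′ on the gene's own strand because these genes are described throughout, with the match in capitals. A match is a description of these letters only.
Tyrp1 (chr4:80834155-80834183, plus strand, match 47 bases before the start): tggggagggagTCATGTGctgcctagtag
Dct (chr14:118052380-118052408, minus strand, match 151 bases before): tgcacttagggTCATGTGctaacaaagag
Dct (chr14:118052461-118052489, minus strand, 232 bases before, match read on the opposite strand): cttggctgggaCACATGAgcccaataaag
Tyr (chr7:87493517-87493545, minus strand, match 22 bases before): gaaaaagttagTCATGTGctttgcagaag
Trpm1 (chr7:64153682-64153710, plus strand, match 142 bases before): ccaaatcctcaTCATGTGcccaccccaaa

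The 4 frames held 3522010 UMIs, between 674029 and 1066633 each, and members held 296427 of them. Median UMIs per spot were 754 in members and 671 in the other spots. Barcodes shared between any pair of frames numbered 220 to 824, since the slide reuses its array positions. Intervals and floors cover counting error only.

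Members made up 8.81%, 9.25%, 8.67% and 3.13% of the spots with at least 200 UMIs in frames 1 to 4, a mean of 7.46% ± 2.90 (SD, n = 4). The exact 95% binomial intervals were 7.08 to 10.8%, 7.58 to 11.1%, 6.93 to 10.7% and 2.05 to 4.55%. Frame 4 lay below the other frames and its interval did not reach theirs. Members held 3 to 99 pigment UMIs with a median of 6, and the median was 6 in frames 1 to 3 and 4 in frame 4. The 48 members with at least 20 pigment UMIs carried 54.7% of all pigment UMIs, but only 1 of them lay in frame 4. At the other end 62 members had exactly 3 pigment UMIs, and 137 spots with 2 pigment UMIs lay just outside.

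**Figure D1:**
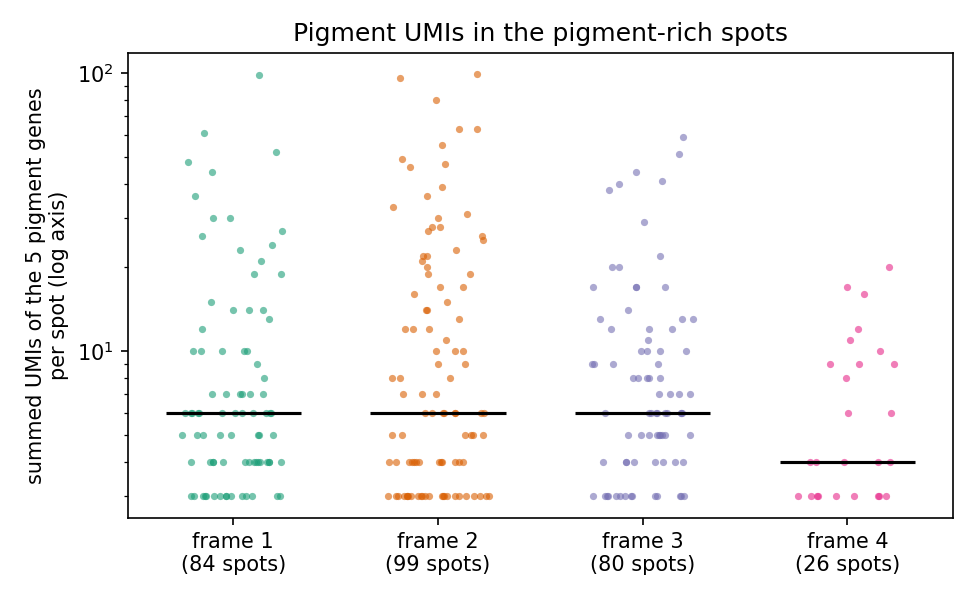
Pigment UMIs of each member spot (vertical axis, log scale) by frame, where each point is 1 spot and the line is the frame's median. Medians are 6, 6, 6 and 4, and frame 4 has no spot above 20.

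The rule genes are given as description, since the members were selected on them. Levels here and below are CPM, the UMIs of a gene scaled to all UMIs of the set in that frame, and levels of different genes are not set against each other. Dct, which converts dopachrome on the way to eumelanin, had 6653, 9950, 7658 and 3174 CPM in members of frames 1 to 4 (mean 6859 ± 2818, SD, n = 4) and at least 1 UMI in 91.7% of members. Tyrp1, the related melanosomal oxidase, had 3058, 3486, 2663 and 1389 CPM and was seen in 73.7% of members. Both were lowest in frame 4. Pmel, the fibril protein, had 538, 555, 993 and 760.4 CPM, and Mlana, a melanosome protein, had 549, 316, 483 and 628. Neither was lowest in frame 4. The transporter Slc45a2 had 3 UMIs in all members. Rdh5, an RPE retinol dehydrogenase that the choice of members did not use, had 74.5 ± 27.4 CPM in members and 75.3 ± 40.5 in the other spots (SD, n = 4), and the sets overlapped.

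The label of these spots names melanocytes, and the data did not bear that name out. Sox10 had 1 UMI in all 289 members, against 9 in the 337 RPE-gene spots and 22 in the other spots. These sets held 296427, 350335 and 3133532 UMIs in all. At these depths the counts do not show less Sox10 in members than in the other spots. Mc1r, the melanocortin receptor, and the crest factors Pax3, Foxd3 and Snai2 had 0 UMIs in members, where 3 UMIs correspond to 10.1 CPM. Kit, the growth factor receptor of melanocytes, had 3 UMIs, all in frame 2. Mitf, which RPE and melanocytes both use, had 33.6, 19.2, 41.4 and 33.1 CPM from 9 UMIs in members and 14.1, 23.3, 22.5 and 6.55 CPM in the other spots. These Mitf levels overlapped and rest on few UMIs.

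Over the list of 19 crest and melanocyte genes, 5 were at 0 in members, and the summed level was 230 to 593 CPM in members, 378 to 492 in the other spots and 310 to 402 in the RPE-gene spots. These ranges overlapped. Of 5 such genes that could be tested against the other spots, 0 passed with edgeR's quasi-likelihood test at an adjusted p of 0.05. With that test 1 was lower at an unadjusted p under 0.05, and DESeq2 called 0. Over all 4991 genes tested 8.76% passed, so 0 of 5 does not set these genes apart. Depth limits this check, because members hold 754 UMIs per spot and transcription factors are low. The spots are therefore named after the rule as pigment-rich spots.

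Members were first compared with the 3489 other spots of the same frames, which hold neural retina, RPE and all remaining tissue. Of 4991 genes tested, 437 passed (8.76%), with 289 higher in members (5.79%) and 148 lower (2.97%), at edgeR adjusted p under 0.05 with the frame as a block. The median log2 fold of all tested genes was -0.08, and for 17.1% of them the members and other spots did not overlap over the 4 frames. DESeq2 called 304. Without frame 1 there were 203 calls and without frame 2 there were 236. Fewer cells of a type and less RNA per cell cannot be told apart in any of these sets.

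Of the melanosome list, 13 of 31 genes entered the test, and 4 were higher in members and 0 lower. The median log2 fold of the 13 was 0.05. Gpnmb, a glycoprotein of melanosomes and lysosomes, had 571, 488, 635 and 397 CPM in members and 56.3, 59.4, 76.3 and 26.2 in the other spots. Every member value lay above every other-spot value, and the log2 fold was 3.32 ± 0.31 (SD of the frames' folds, edgeR adjusted p 1.78e-10). Trpm1, a cation channel of melanocytes that retinal bipolar cells also express, had 605, 393, 442 and 397 CPM in members against 49.9 to 60.6 in the other spots, again without overlap. Its log2 fold was 3.05 ± 0.40 (edgeR adjusted p 3.47e-09). Cd63, a tetraspanin of melanosomes and endosomes, rose by 1.51 ± 0.42 on the log2 scale in 4 of 4 frames (edgeR adjusted p 0.00133). Oca2, a melanosomal transporter, passed with 1.23 ± 0.90 (edgeR adjusted p 0.0256), but it was higher in 3 of 4 frames only, with 33.1 CPM in members of frame 4 against 34.4 in its other spots. Tyr, which was too low to test, had 89.6, 76.6, 27.6 and 0 CPM from 18 UMIs in members.

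Of a list for the ciliary body and iris, tissues whose epithelium is also pigmented, some genes were higher in members. The list held 23 genes, 11 were tested, and 5 were higher and 0 lower, with a median log2 fold of 0.78. It was drawn up with earlier results of these data known, so this count is not independent support. The sections were of posterior eyes labelled Retina, and members could not be placed in the tissue. Gja1 (chr10:56377300-56390419), the gap junction protein connexin 43 that couples the epithelial layers of the ciliary body and also joins glia and fibroblasts, had 3102, 2308, 2898 and 1785 CPM in members. In the other spots it had 136, 191, 401 and 154 CPM. The lowest member value was above the highest other-spot value, and the log2 fold was 3.65 ± 0.67 (edgeR adjusted p 1.3e-10). Gja1 was seen in 41.5% of members and in 9.95% of the other spots.

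Other called genes of the ciliary list were Slc4a4, a sodium bicarbonate cotransporter, with 157, 182, 55.2 and 66.1 CPM in members against 12.7 to 17.5 (log2 fold 3.04, edgeR adjusted p 0.000145), and the transcription factors Zic1, of the zinc finger class, and Foxc1, which acts in anterior segment development. Zic1 rested on 13 UMIs (log2 fold 2.70, edgeR adjusted p 0.000655) and had 0 UMIs in the RPE-gene spots. Slc4a4 and Zic1 were so low in the other spots that they could enter the test only through members. Their p-values are a description only. Foxc1 had 112, 229.8, 331 and 66.1 CPM in members, and frame 4 there lay within the range of the other spots, 60.2 to 98.9 CPM. Aqp1, Aqp4, Car2, Myoc, Slc12a2 and Slc4a2 of the same list were tested and did not pass.

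**Figure D2:**
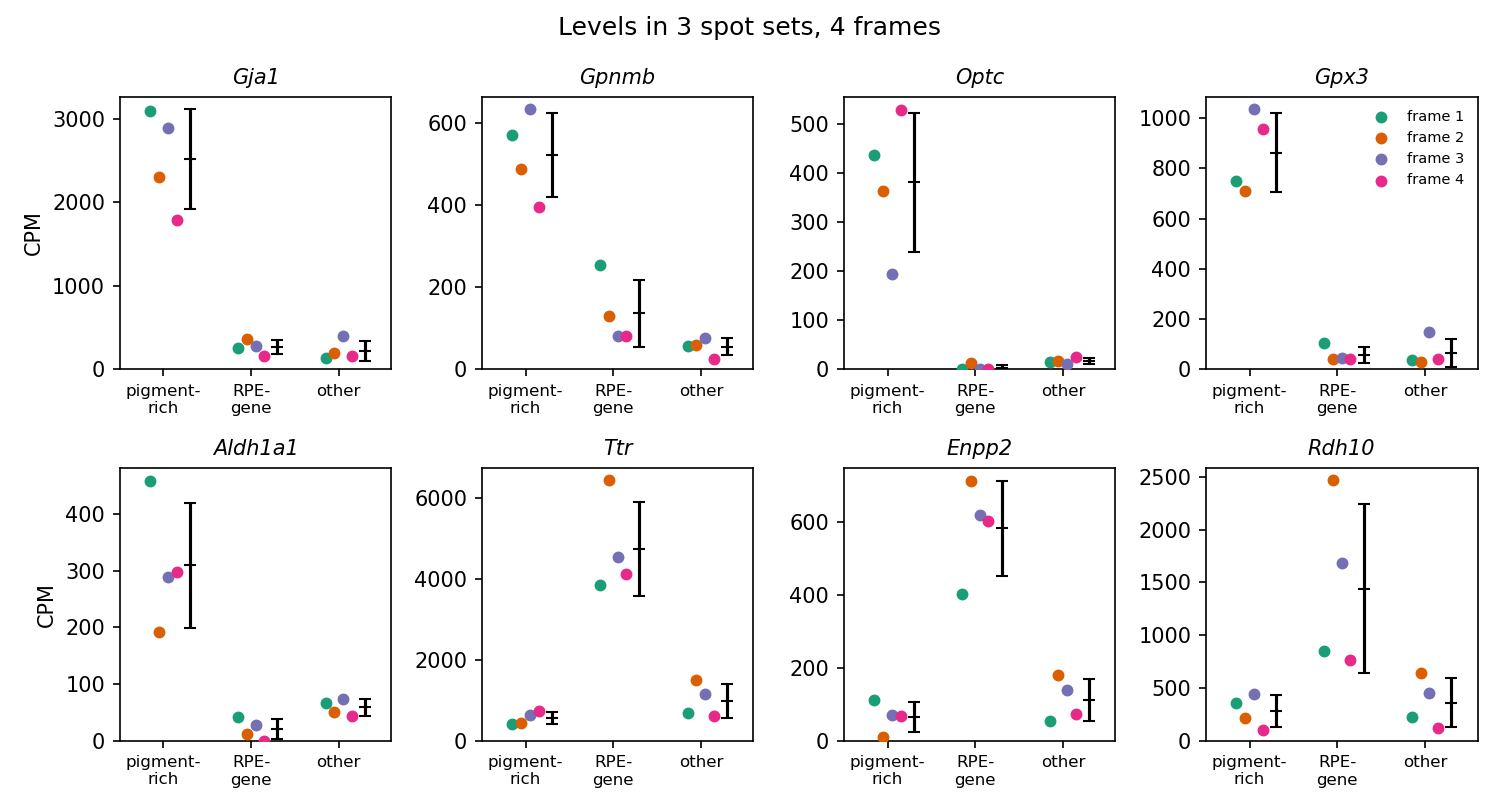
Levels (CPM, vertical axis) of 8 genes in pigment-rich, RPE-gene and other spots, where each point is a frame and the bar is the mean ± SD (n = 4 frames). Gja1, Gpnmb, Optc, Gpx3 and Aldh1a1 are highest in pigment-rich spots, while Ttr, Enpp2 and Rdh10 are highest in RPE-gene spots.

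The 8 largest folds over the other spots were those of F5, Cldn2, Optc, Fam129a, Ltbp2, Gpx3, Slc13a4 and Sod3. F5, coagulation factor V, had 101, 86.2, 193 and 99.2 CPM in members and 2.56, 3.18, 6.26 and 0 in the other spots, on 35 and 10 UMIs, with a log2 fold of 5.17 ± 0.22 (edgeR adjusted p 1.06e-08). Cldn2, a pore-forming claudin, followed with 4.89 ± 0.65 on 22 and 7 UMIs (edgeR adjusted p 8.24e-08). Optc (chr1:133897193-133909688), opticin, a small leucine-rich protein of the vitreous that is known to be made by the ciliary epithelium, had 437, 364, 193 and 529 CPM in members and 11.3 to 24.6 in the other spots. None of these genes overlapped between the sets, and Optc rose by 4.48 ± 0.34 (edgeR adjusted p 7.65e-11). Fam129a and Ltbp2, a latent TGF-beta binding protein of microfibrils, each rose by 4.25. Slc13a4, a sulfate transporter, had 358, 287, 248 and 99.2 CPM against 14.7 to 18.8 and rose by 3.94. F5, Cldn2, Optc and Slc13a4 were so low in the other spots that they could enter the test only through members. Their rank, p-values and lack of overlap are therefore a description only.

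Gpx3 and Sod3 belong to the redox and iron list, in which 7 of 23 tested genes were higher, 0 were lower and 16 did not pass, with a median log2 fold of 0.54. Gpx3 (chr11:54902854-54910387), a secreted glutathione peroxidase, had 750.4, 709, 1035 and 959 CPM in members and 38.4, 29.7, 149 and 40.9 in the other spots. All frames of members lay above all frames of the other spots, with a log2 fold of 4.00 ± 0.78 (edgeR adjusted p 4.53e-12). Sod3, the extracellular superoxide dismutase, rose by 3.67 ± 1.04, with 298 CPM in frame 4 and 55.2 to 67.2 in the other frames of members. Sod3, too, could enter the test only through members. Cp, the ferroxidase ceruloplasmin, had 672, 450.1, 635 and 496 CPM against 109.7 to 228 (log2 fold 1.68, edgeR adjusted p 5.13e-06). Ftl1, Gsta4, Prdx6 and Mgst1 were the other 4 that passed.

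Matrix and growth factor genes were higher as well. In the fibroblast list 9 of 17 tested genes were higher and 0 lower (median log2 fold 1.09), among them Mfap4, a microfibril protein (3.39), Fbln1, fibulin 1 (3.27), and Fbn1, fibrillin 1 (2.99). Fbln1 had 851, 421, 552 and 331 CPM in members and 46.7 to 67.6 in the other spots. Of all genes tested 5.79% were higher. Against the RPE-gene spots, described further on, 1 of 9 tested fibroblast genes was higher and 1 lower (median log2 fold -0.16). The list summed to 3836 ± 1315 CPM in those spots and 3561 ± 178 in members (SD, n = 4), so its level did not set members apart from them. In the list of insulin-like growth factor, TGF-beta and BMP genes 9 of 13 were higher and 0 lower (median 1.70), with Id3, a BMP-responsive inhibitor of transcription factors, at 482, 393, 262 and 331 CPM against 40.9 to 70.0. Id3 rose by 2.83 ± 0.41 (edgeR adjusted p 5.33e-08), and Igfbp5 rose by 1.70 ± 0.16 (edgeR adjusted p 1.49e-05). Col18a1, a basement membrane collagen, rose by 3.40 ± 0.55 (edgeR adjusted p 1.02e-07), with Lamb2, a laminin chain, at 1.56. Of smooth muscle genes Acta2 and Myh11 passed out of 5. Myh11, a smooth muscle myosin, had 302, 383, 414 and 132 CPM against 39.7 to 93.9, and leaving out any 1 frame left 1 call.

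Wif1, the Wnt inhibitor that the study's vectors carry, had 3 UMIs in members, at 11.2, 9.58, 13.8 and 0 CPM, against 7.68 to 31.8 CPM in the other spots. Dkk3, a Dickkopf family protein, had 392, 565, 566 and 959 CPM in members and 108 to 156 in the other spots, without overlap (log2 fold 2.15 ± 0.74, edgeR adjusted p 2.61e-07). Sfrp1, a secreted Frizzled-related antagonist, had 224, 239, 235 and 298 CPM against 23.1 to 48.8, also without overlap (2.66 ± 0.38, edgeR adjusted p 2.52e-06). These were 2 of the 5 testable Wnt antagonists of a list of 23, and 0 were lower. Aldh1a1, which makes retinoic acid from retinal, had 459, 192, 290 and 298 CPM in members against 42.6 to 73.8, without overlap (2.39 ± 0.46, edgeR adjusted p 2.52e-06). Aldh1a2, another such enzyme, had 3 UMIs in members and was not tested. Ptgds, a prostaglandin synthase that also carries retinoids, had 5286, 4587, 6168 and 6645 CPM against 1374 to 2682 and rose by 1.40 ± 0.43 (edgeR adjusted p 2.06e-08).

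Genes of immune cells were higher in members, with less even support across frames. In the macrophage and antigen presentation list 7 of 10 tested genes were higher and 0 lower (median log2 fold 1.54), falling to 4 without frame 2 or without frame 3. Cd74, the invariant chain of MHC class II, had 325, 192, 400.1 and 165 CPM against 45.1 to 88.4, and rose by 2.17 ± 0.70 (edgeR adjusted p 3.01e-05). Lyz2, a lysozyme of myeloid cells, had 157, 459.7, 814 and 165 CPM against 78.5 to 106, so that frames 2 and 3 were the high ones. In the complement and MHC class I list 7 of 11 were higher and 0 lower (median 1.67), falling to 2 without frame 1.

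C3, the central complement protein, showed how much frames varied. It had 4491, 4041, 3988 and 959 CPM in members and 566 to 829.8 in the other spots, and its log2 fold of 2.36 did not pass (edgeR adjusted p 0.206). Immunoglobulin transcripts, which mark plasma cells, were concentrated in frames 2 and 3, where Igkc had 3294 and 4650 CPM in members against 616 and 760.4 in frames 1 and 4. Igkc did not pass against the other spots (edgeR adjusted p 0.103). Igha, the heavy chain of immunoglobulin A, chosen for this comparison after its values were seen, had 179, 1034, 1642 and 132 CPM in members and 97.3, 202, 258 and 109.7 in the other spots. The Igha ranges overlapped, but it was higher in 4 of 4 frames and passed (log2 fold 1.95 ± 1.15, edgeR adjusted p 0.000185). Against the RPE-gene spots, described further on, Igha rose by 4.68 ± 1.95 (edgeR adjusted p 2.5e-08). It had 0 to 80.3 CPM there and could enter that test only through members, so this p-value is a description only. Leaving 393 immunoglobulin genes out changed the count of called genes from 437 to 475. The part of these cells in the other results was not tested. Of endothelial genes 0 of 7 tested passed with edgeR, 1 had an unadjusted p under 0.05 and DESeq2 called 0. Of skeletal muscle genes 0 of 4 passed with edgeR, 0 at an unadjusted p under 0.05 and 0 with DESeq2. With 8.76% of all tested genes passing, these counts do not set either list apart. Mast cell genes summed to 0 to 13.8 CPM in members, with 6 of 8 genes at 0.

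Genes of Müller glia and of astrocytes that passed were Apoe, a lipid carrier, Clu, Dkk3, Vim and Glul, 5 of 13 tested, and 0 were lower. Apoe had 1938, 1906, 2028 and 1851 CPM in members and 417 to 586 in the other spots, a narrow range in members, and rose by 2.00 ± 0.18 (edgeR adjusted p 1.41e-10). Clu, a secreted chaperone, had 18850, 10314, 13039 and 8992 CPM in members. Of RPE genes that the rule did not use, Slc2a1, the glucose transporter of the blood-retina barrier, rose by 1.04 ± 0.15 (edgeR adjusted p 0.000113), Slc4a5 rose by 1.70 (edgeR adjusted p 0.00767), and Ttr, the thyroxine and retinol carrier, fell by 0.80 on the log2 scale (edgeR adjusted p 0.0155). The fall of Ttr was not stable: in frame 4 it had 727 CPM in members and 602 in the other spots, it lost its call in 7 of 16 alternatives, and its log2 fold was 0.28 against other spots without RPE-gene spots and spots of 1 or 2 pigment UMIs. The other 13 of 16 RPE genes did not pass. Members were thus not free of RPE transcripts: the 30 RPE genes outside the rule summed to 5190 to 6747 CPM in members. In the other spots they summed to 4262 to 7104 CPM.

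Photoreceptor and neuronal genes were lower in members. The rod list summed to 32503, 32580, 28659 and 45821 CPM in members and 45529 to 52874 in the other spots, so that frame 4 overlapped. Of its 26 genes 10 were lower and 0 higher (median log2 fold -0.53), but only 2 without frame 3, 4 without frame 1 and 1 with DESeq2. Of inner retinal neuron genes 8 of 18 were lower and 1 higher, with 3 lower without frame 1, 5 without frame 3 and 5 with DESeq2. Nefl, a neurofilament of ganglion cells, had 1064, 2356, 1518 and 3372 CPM against 3587 to 5336 and fell by 1.20 on the log2 scale (edgeR adjusted p 8.16e-07). Snap25, a synaptic SNARE, fell by 1.23 (edgeR adjusted p 1.33e-06).

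The largest drops were of neuronal genes near the detection limit. Arpp21, Ryr2, Rgs7bp and Cacna1b had 0 UMIs in members and were at least 5.05, 4.35, 3.66 and 3.15-fold lower than in the other spots, with 3 UMIs over the members as the floor. Erc2, a presynaptic scaffold, had 1 UMI, a ratio of 24.4 with a 95% counting interval of 4.34 to 967.7. Of Schwann and oligodendrocyte genes 2 of 5 were lower. Mbp, myelin basic protein, had 33.6, 0, 41.4 and 33.1 CPM in members and 24.3, 68.9, 243 and 306 in the other spots, so its difference lay in frames 2 to 4 (log2 fold -2.28, edgeR adjusted p 0.00801). It is named from 7 UMIs in members, and the list kept 1 call without frame 2, 3 or 4.

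**Figure D3:**
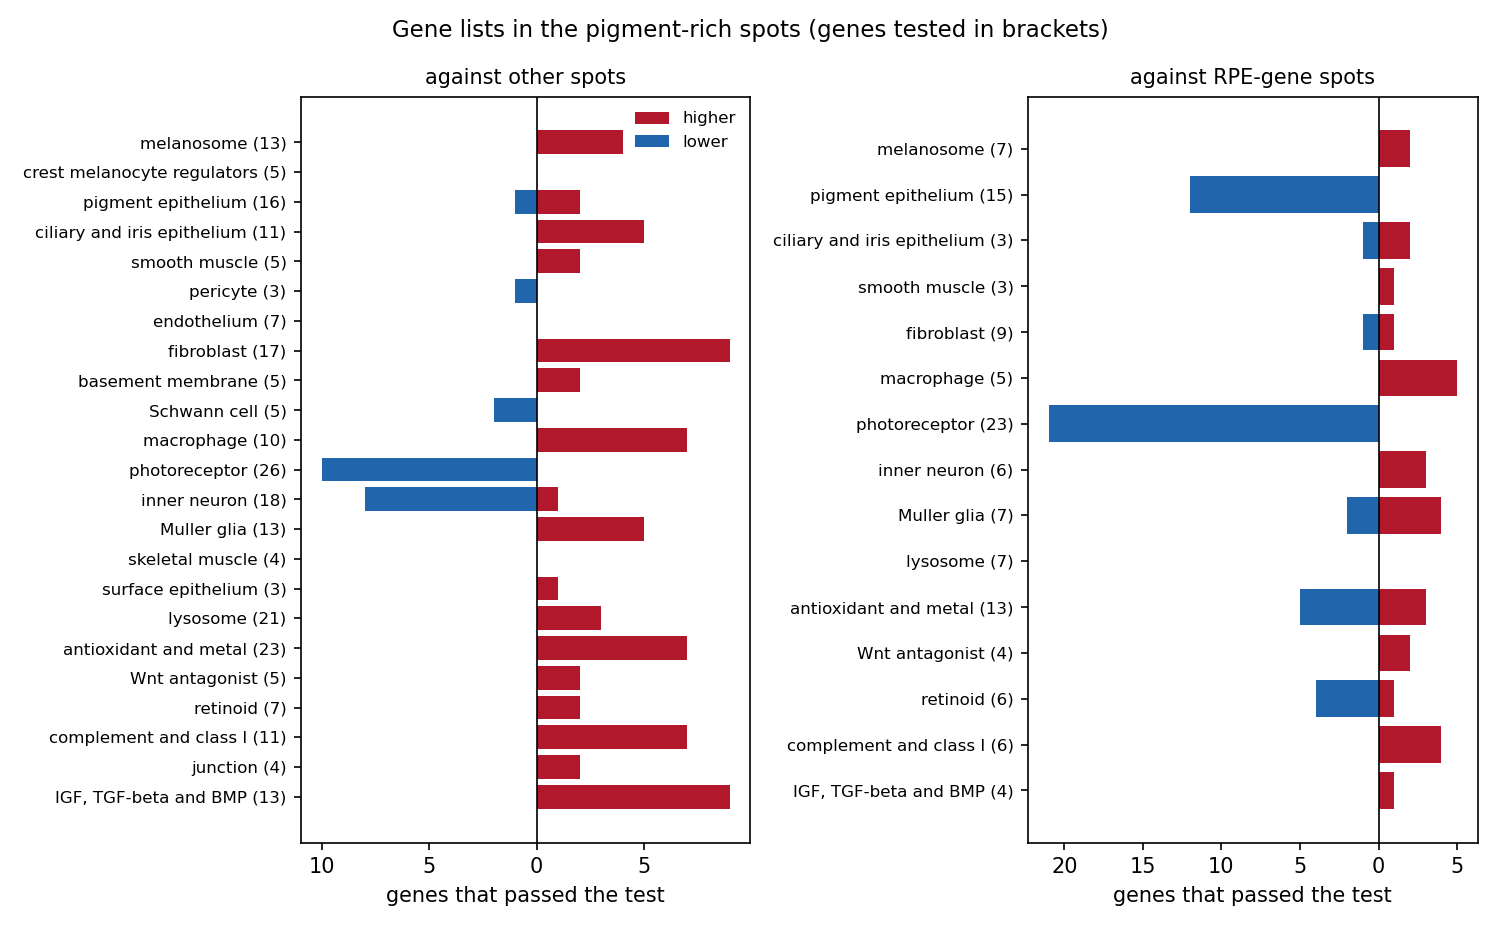
Number of genes per list (horizontal axis) that were higher or lower in pigment-rich spots at edgeR adjusted p under 0.05, against other spots and against RPE-gene spots, for lists with at least 3 tested genes. Against RPE-gene spots, 21 rod and 12 pigment epithelium genes are lower.

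The RPE is the nearest pigmented tissue, so members were next compared with the 337 spots that had at least 4 UMIs of Rpe65, Rgr, Rdh5, Lrat, Best1 and Rrh (52, 152, 104 and 29 in frames 1 to 4). Of 1286 genes tested, 213 passed (16.6%), with 110 higher in members (8.55%) and 103 lower (8.01%), and 18.4% of genes did not overlap between the sets. DESeq2 called 126, and without frames 1, 2 or 3 there were 141, 102 and 131 calls. The other spots and the RPE-gene spots were set against the same members, so the comparisons are not independent.

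RPE genes outside the rule were lower in members, and the RPE-gene spots were chosen by other genes of the same kind, so this direction is not independent of the choice. Of 15 tested, 12 were lower and 0 higher (median log2 fold -1.85), with 7 lower without frame 2. Ttr had 414, 441, 621 and 727 CPM in members and 3854, 6453, 4547 and 4136 in the RPE-gene spots, without overlap (log2 fold -3.12 ± 0.60, edgeR adjusted p 4.9e-12). Enpp2, the lysophospholipase autotaxin, had 112, 9.58, 69.0 and 66.1 CPM against 402 to 712 (log2 fold -3.22, edgeR adjusted p 8.08e-06). Rdh10, a retinol dehydrogenase, had 358, 211, 442 and 99.2 CPM against 763 to 2470, lower in 4 of 4 frames (edgeR adjusted p 9.22e-06). Stra6, the retinol uptake receptor, fell by 3.51 on the log2 scale, and Slc6a20a, an amino acid transporter, fell by 3.58. Car12, a carbonic anhydrase that stood on the ciliary list, had 2 UMIs in members and 57 in the RPE-gene spots, a ratio of 24.1 with a counting interval of 6.38 to 203.9.

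Optc and Gja1, described above, were also higher in members than in the RPE-gene spots. Optc had 107 UMIs in members and 2 in the RPE-gene spots, a ratio of 63.2 with a 95% counting interval of 17.1 to 528.8. Gja1 had 254, 368, 282 and 161 CPM there and was higher in members by 3.20 ± 0.37 (edgeR adjusted p 6.66e-12). Both genes were without overlap, but Optc could enter this test only through members. Gpx3 was higher by 3.95 ± 0.63 (edgeR adjusted p 2.1e-09), Cp by 3.74 ± 0.41 (9.98e-08) and Aldh1a1 by 3.69 ± 0.25 (4.67e-06). Like Optc, the genes Gpx3, Cp and Aldh1a1 were so low in the RPE-gene spots that they could enter this test only through members. Their p-values are a description only. Trf, transferrin, ran the other way with 235, 76.6, 331 and 99.2 CPM in members against 1044 to 1959. Of the redox and iron list 3 of 13 tested genes were higher in members and 5 were lower. The list summed to 6966 ± 1168 CPM in members and 8451 ± 996 in the RPE-gene spots (SD, n = 4).

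Melanosome genes separated pigment-rich from RPE-gene spots in part. Gpnmb had 254, 131, 82.0 and 80.3 CPM in the RPE-gene spots and was higher in members by 2.03 ± 0.65 (edgeR adjusted p 9.02e-05), and Trpm1 had 36.4 to 161 CPM there and was higher by 2.54 ± 0.91 (2.25e-05). Both were without overlap, and they were the 2 called of 7 tested. Oca2 had 360.0, 409.6, 374 and 321 CPM in the RPE-gene spots against 168, 383, 221 and 33.1 in members, a log2 difference of -0.75 that did not pass (edgeR adjusted p 0.175). Tyr had 63.5 to 120.5 CPM in the RPE-gene spots and was not tested.

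Immune and acute phase genes were also higher in members than in the RPE-gene spots. C3 had 169, 190.0, 146 and 201 CPM in the RPE-gene spots and was higher in members by 4.39 ± 1.28 (edgeR adjusted p 4.9e-12), and it passed here although it did not pass against the other spots. Lcn2, an iron-siderophore carrier, had 1523, 900.2, 911 and 165 CPM in members against 0 to 101 (log2 fold 3.98), and Serpina3n, a protease inhibitor, had 649.6, 450.1, 317 and 231 against 0 to 29.7 (4.19). C3, Lcn2 and Serpina3n were lowest in members of frame 4. Lcn2 and Serpina3n could enter this test only through members. The macrophage list had 5 of 5 tested genes higher, but 1 without frame 2 and 3 without frame 3. The complement list had 4 of 6 higher, and 2 without frame 2. Of the rod list 21 of 23 genes were lower in members and 0 higher, and the RPE-gene spots held 60980 to 80101 CPM of it, above every frame of members.

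Retinal neuron genes, which were lower in members than in the other spots, were higher than in the RPE-gene spots for 3 of 6 tested and lower for 0. This direction depended on the members taken: with members of at least 10 pigment UMIs 0 were higher and 1 was lower. Nefl rose by 1.13 ± 0.41 (edgeR adjusted p 0.000133) but had a log2 fold of -0.65 with those members, and Sncg, gamma-synuclein of ganglion cells, rose by 1.42 ± 0.89 (edgeR adjusted p 0.00489). Of retinoid genes 1 of 6 was higher and 4 lower, and Ptgds, at 7538 to 8994 CPM in the RPE-gene spots, fell by 0.58 in members (edgeR adjusted p 0.00145) after having been higher than in the other spots. Dkk3 had 84.7 to 161 CPM in the RPE-gene spots and was higher in members by 2.38 ± 0.16 (edgeR adjusted p 4.04e-06).

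Collagen-rich spots, with at least 6 UMIs of Col1a1, Col1a2, Col3a1, Dcn and Lum, stood for the fibrous coat. They were not free of retina: pooled over all frames, the rod list summed to 53135 CPM in them, 49645 in the other spots and 32949 in members. Of 20 tested rod genes 5 were lower in members than in the collagen-rich spots and 0 higher. The collagen-rich spots numbered 43, and frame 2 with 6 of them was not used in the test, so n = 3 frames. Of 434 genes tested 31 passed (7.14%), 14 higher in members (3.23%) and 17 lower (3.92%), while 24.4% of genes did not overlap. The result rests on single frames, with 7 calls without frame 1 and, without frame 3, 0 calls by edgeR and 72 genes at an unadjusted p under 0.05. DESeq2 called 6 with all 3 frames. Gja1 had 3102, 2898 and 1785 CPM in members of frames 1, 3 and 4 and 6 UMIs in the collagen-rich spots (log2 fold 4.53 ± 1.86, edgeR adjusted p 3.48e-05). Gpx3 was higher by 3.01 ± 0.31 (edgeR adjusted p 0.000926), and Trpm1 was higher by 2.40 ± 0.48 (edgeR adjusted p 0.0284). Gja1, Gpx3 and Trpm1 were so low in the collagen-rich spots that they could enter this test only through members. Their p-values are a description only. Sparc, a collagen-binding matrix protein, had 605, 704 and 628 CPM in members and 1703, 4614 and 2267 in the collagen-rich spots, without overlap, and fell by 2.10 on the log2 scale (edgeR adjusted p 0.000926).

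Along the pigment count that chose them, members are described without a test. The ciliary list summed over frames to 2290 CPM in members with 3 pigment UMIs, 1459 with 4 to 5, 5635 with at least 6 and 7113 with at least 10. By frame it was 1988, 2427, 2553 and 1937 CPM at 3 pigment UMIs and 6530, 4785, 5805 and 5531 at 6 or more, without overlap. The rod list ran the other way, with 55583, 49857 and 20355 CPM over the same first 3 classes. Among spots just outside the rule, those with 2 pigment UMIs had 831 CPM of the ciliary list, and the 100 spots with enough pigment but 1 UMI of an excluded RPE gene had 1732.

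**Figure D4:**
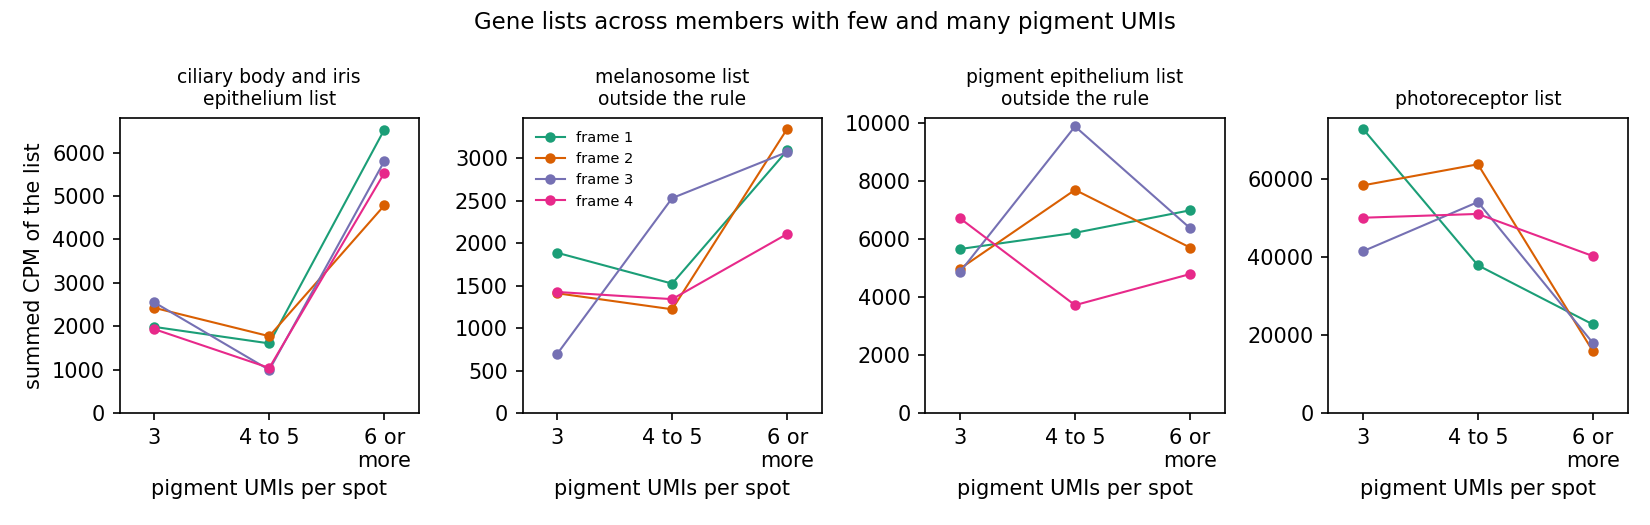
Summed CPM (vertical axis) of 4 gene lists in members with 3, 4 to 5 and at least 6 pigment UMIs, with 1 line per frame. In all 4 frames the ciliary list is highest at 6 or more pigment UMIs, where the photoreceptor list is lowest over the frames together.

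Spots rich in Gja1 showed the same unevenness. Of the 289 members 77 (26.6%) had at least 3 Gja1 UMIs, against 9 of 337 RPE-gene spots (2.67%) and 65 of 3489 other spots (1.86%). They were 5 of 62 members with 3 pigment UMIs, 6 of 64 with 4 to 5 and 66 of 163 with at least 6. Seen from the other side, 142 spots of all frames had at least 3 Gja1 UMIs, and 77 of them (54.2%) were members, at 69.7, 62.5, 44.2 and 35.3% in frames 1 to 4.

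A few genes outside the rule for named genes were chosen after their values were seen. Penk, the enkephalin precursor, had 515, 373, 414 and 1091 CPM in members against 30.7 to 62.6 in the other spots (log2 fold 3.66, edgeR adjusted p 1.2e-10). Nudt4, a diphosphoinositol polyphosphate hydrolase, had 2824 ± 316 CPM (SD, n = 4) in members, 942 ± 212 in the other spots and 367 ± 102 in the RPE-gene spots. It passed against both, at log2 folds of 1.63 and 2.95. Efemp1, a fibulin, and Atp1b3, a sodium pump beta subunit, passed against both as well, at 3.01 and 3.30 for Efemp1 and at 2.72 and 2.79 for Atp1b3. Against the RPE-gene spots Efemp1 and Atp1b3 could enter the test only through members.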

How the data were processed

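The deposited matrices hold counts, as UMI counts per gene and spot, which the authors made with Space Ranger 2.0.0 per the file headers, on mm10 per the submitters' processing notes. The annotation release is not given in the sources used here. The matrices used hold spots over tissue, 1 library per frame. Spot positions could not be joined to barcodes and images were not used, and no doublet caller was run because spots hold several cells.

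UMIs were summed per frame and spot set, sets with at least 10 spots entering. Neither totals nor tests used the 11 genes that chose members or RPE-gene spots (16 with the collagen genes). edgeR 4.0.16 (R 4.3.3) was run with filterByExpr at a minimum count of 10, TMM, a robust quasi-likelihood test, the frame as a block and Benjamini-Hochberg adjustment at 0.05. All adjusted p-values come from it. The filter looks at both sets, so a gene too low in 1 set could enter only through the set where it was high. Many of the genes named here entered that way, and their p-values and lack of overlap are then a description only. The block follows from both sets of a pair sharing a frame. After set means were removed, values of the sets of a frame correlated at 0.043 to 0.078 (other spots), 0.049 to 0.138 (RPE-gene spots) and 0.135 to 0.178 (collagen-rich spots), so pairing was weak in the first. DESeq2 1.42.0 was an alternative. A ± after a log2 fold is the SD over frames, each frame's fold being taken with a prior count of 2. The test was checked on simulated counts, with the same spread for all genes and no frame effect. In a simulation of the comparison with other spots, 88.0% of genes changed by 2 on the log2 scale were recovered. Of those changed by 1, 30.8% were recovered, so smaller differences can go uncalled. In the data C3, at a log2 fold of 2.36, did not pass, so recovery there can be lower.

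Named genes are the 8 largest folds in each direction that passed, genes of the melanosome, crest, RPE and ciliary lists, up to 3 genes of lowest p per other list, and Ptgds, Gpnmb, Mitf, Sox10, Ttr, Wif1, Dkk3, Sfrp1, Aldh1a1, Aldh1a2, Gpx3 and Timp3. The text names most of them, and some are not reported here. The members, the 25 lists of 495 genes and the tests were chosen with earlier results of these data known. Alternatives were DESeq2, no filter, no block, each frame left out, other thresholds for UMIs, pigment and RPE genes, and a limit on photoreceptor UMIs. Further ones were added after seeing the data: members with at least 10 or with 3 pigment UMIs, collagen-rich spots with at least 3 UMIs, and no immunoglobulin genes.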

Additional observations from a re-analysis of the deposited data

Results flagged for a closer look

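In 6 of 54 values checked, 1 frame of 4 stood so far from the others that its gap exceeded Dixon's 95% critical value, where chance gives about 1 in 20. Frame 4 was low in the share of spots that were members, 3.13% against 8.67 to 9.25%. It was also low in the summed melanosome list, at 1719 CPM against 2531 to 2595. Timp3, an inhibitor of matrix proteases, was lower in its members too, at 298 CPM against 448 to 479. Frame 4 was high in the summed Wnt antagonist list, at 1917 CPM against 1007 to 1149, and in Sod3, at 298 CPM against 55.2 to 67.2. F5 was high in frame 3, at 193 CPM against 86.2 to 101. Frame 4 had 26 members and 30248 member UMIs, the fewest of the frames. Its part in these values was not tested.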

How the results depend on the processing

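Against the other spots the 437 calls became 237 with members of at least 2 pigment UMIs, 680 under a limit of 2% photoreceptor UMIs, 818 with at least 10 pigment UMIs, 11 with exactly 3, and 203 to 457 with each frame left out. The share of calls that were higher was 66.1% and became 79.9% with DESeq2, 28.9% without the filter, 81.8, 73.7 and 78.4% without frames 1, 2 and 3, 51.0% at 5 or more and 40.1% at 10 or more pigment UMIs, 78.5% at 2 or more and 47.1% under the photoreceptor limit. Against RPE-gene spots the 213 calls became 126 with DESeq2, 105 with RPE-gene spots of at least 8 UMIs, 39 with members of 3 pigment UMIs and 102 to 280 with each frame left out, and the share higher, 51.6%, became 68.9% without the filter. Against collagen-rich spots the 31 calls became 6 with DESeq2, 55 without the filter, 10 without the replicate block, 7 with 0 UMIs of all 6 RPE genes, 63 under the photoreceptor limit, 14 with collagen-rich spots of at least 3 UMIs and 0 to 33 with each frame left out. The share higher, 45.2%, became 66.7% with DESeq2 and 98.2% without the filter. Without the replicate block 528 genes passed against the other spots and 194 against RPE-gene spots. Members numbered 186 at 5 or more pigment UMIs and 612 without the RPE condition. With members of 3 pigment UMIs, log2 folds over the other spots turned to -0.30 for Ptgds, -0.22 for Dkk3, -0.049 for B2m, -0.44 for Slc2a1, -0.66 for Lyz2, -0.41 for H2-K1, -0.47 for Tyrobp, -1.78 for Ctsl, -0.40 for Clu, -0.59 for Cd63, -0.73 for Ctsd, -0.79 for Slc4a5, -0.43 for Timp3 and -1.28 for Oca2. Ttr turned to 0.28 against other spots without RPE-gene spots and spots of 1 or 2 pigment UMIs. Against RPE-gene spots Nefl turned to -0.65 and Ptgds to 0.11 at 10 or more pigment UMIs, and Apoe to -0.044 and Vtn to 0.064 at 3. Against collagen-rich spots Ttr turned to 0.23 and Timp3 to 0.29 without the filter, and Timp3 ran from -0.99 to 0.29 with each frame left out. Causes were not tested. Of all named-gene values under alternatives 1636 kept direction and call, 297 lost the call, 3 gained it and 22 reversed. Among the genes named in the text, F5, Cldn2, Optc, Fam129a, Ltbp2, Slc13a4, Sod3, Slc4a4, Mfap4 and Nefl lost no call against the other spots in any alternative that could test them. F5, Optc and Nefl were tested in 16 alternatives, Cldn2, Slc13a4, Sod3, Slc4a4 and Mfap4 in 15, Fam129a in 14 and Ltbp2 in 10. Of these genes F5, Cldn2, Optc, Slc13a4, Sod3 and Slc4a4 could enter the main test only through members. The alternatives draw on the same frames and largely the same spots, so kept calls are a description and no independent support. Collagen-rich spots of at least 12 UMIs, and members of at least 2 pigment UMIs against collagen-rich spots, were not run because under 3 frames were left. Depth kept many list genes out of the tests, with 5 of 19 crest genes and 0 of 8 mast cell genes tested.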
